A study of Mus musculus with 16 samples.

Results

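Sensory neurons of the trigeminal ganglion (TG) were compared with those of the dorsal root ganglia of segments T10 to L1 (T10-L1 DRG), from raw RNA-seq counts of 8 of the 16 libraries of the series, 4 for each ganglion. The libraries were taken by their titles, and no measured value entered that choice. All came from naïve adult C57BL/6J mice recorded as male and heterozygous for Pirt cre and Rosa26 LSL-tdTomato, so that cells expressing the sensory neuron gene *Pirt* fluoresce red. TG and T10-L1 DRG were dissociated with enzymes, bright live TdTomato-positive cells were sorted in 2 rounds with gates against doublets and clumps, and cDNA was made from the sorted pool by the oligo dT SMART-seq2 protocol, so every library is a bulk sample of mixed neuron types. No drug, lesion or second allele distinguished the ganglia, and the labels do not say how many mice went into a library or which libraries share mice, so the p-values measure the spread between these libraries.

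The TG holds the cell bodies of neurons that sense touch, temperature and pain on the face, the cornea, the teeth and the meninges, while thoracolumbar DRG neurons serve the trunk and many visceral organs. Trigeminal neurons derive from neural crest and from placodal ectoderm at the level of the hindbrain, and DRG neurons from trunk neural crest, where Hox genes record the position along the body axis. Each cell body in both ganglia is wrapped by satellite glial cells, and myelinating Schwann cells ensheath the larger axons. The central root of the TG also contains a stretch that is myelinated by oligodendrocytes.

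TG libraries had 5082985 to 7877884 reads on genes and T10-L1 DRG libraries 6542337 to 13333318, and a count of 3 corresponded to 0.225 to 0.59 CPM, the reads on a gene scaled to a common library total, for counting error only. TG library 1 had reads on 11527 genes, against 14441 to 15354 for libraries 2 to 4 of TG and 14237 to 16694 for T10-L1 DRG. All 8 libraries had reads on *Xist*, from 1279 to 8362, and none on the 4 counted genes of chromosome Y, although the mice are recorded as male. *Pirt* itself had 16.8, 120.2, 18.2 and 91.8 CPM in TG libraries 1 to 4 and 100.1, 45.1, 61.2 and 205 CPM in T10-L1 DRG libraries 1 to 4, and the 20 neuronal markers summed to 1688 to 6037 and 3367 to 6967 CPM. Neuronal markers were thus present in all 8 libraries, and the 13 satellite glial markers summed to 32495 to 79437 and 29113 to 38958 CPM, so that glial RNA was abundant on both sides.

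edgeR's quasi-likelihood test with TMM normalization and Benjamini-Hochberg adjustment was applied to 12914 genes that passed the filter on low counts. Of these, 758 had an adjusted p under 0.05, which is 5.87% of the genes tested, and 2795 (21.6%) had an unadjusted p under 0.05. They divided into 559 genes higher in TG (4.33%) and 199 higher in T10-L1 DRG (1.54%). When a fold change over 5 and over 5 RPKM on average in the higher ganglion were also required, 55 genes were higher in TG (0.426%) and 46 in T10-L1 DRG (0.356%). RPKM here is CPM divided by the union of annotated exons in kilobases. DESeq2 called 1374 (9.64%) and 825 genes (5.79%) in the same directions, and without TG library 1 edgeR called 1908 (14.2%) and 1675 (12.5%). Without any 1 of TG libraries 2, 3 or 4 or T10-L1 DRG libraries 1, 2 or 3, edgeR called 0 or 1 gene at an adjusted p under 0.05 and 2175 to 2463 genes at an unadjusted p under 0.05, so all but at most 1 of the calls are lost when any of those 6 libraries is left out. Without T10-L1 DRG library 4 it called 77 genes higher in TG and 42 lower. On library totals without TMM factors the median log2 fold change of all genes moved from -0.03 to -0.39 and the calls became 160 higher in TG (1.24%) and 295 higher in T10-L1 DRG (2.28%). In CPM, which carries no TMM factor, 5.30% of the genes tested were higher in all 4 TG libraries than in all 4 of T10-L1 DRG and 13.2% were lower.

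The genes furthest above T10-L1 DRG in TG included those of 3 pituitary hormones. *Prl* encodes prolactin, *Gh* encodes growth hormone, and *Pomc* encodes the precursor of ACTH, melanocortins and beta-endorphin. All 3 were called, and all 3 had more CPM in each TG library than in any T10-L1 DRG library. They are among 6 genes that the study selected for TG on these same libraries, so their direction is not independent evidence. In a bulk library, fewer cells that make a transcript and less of it per cell cannot be told apart.

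*Prl* lies on chromosome 13 of mm9 from 27149439 to 27157073 and had 55.5, 619, 8455 and 38.8 CPM in TG libraries 1 to 4 against 4.59, 1.9, 2.22 and 1.65 in T10-L1 DRG libraries 1 to 4. TG library 3 alone held most of the TG reads, and the TG libraries differed among themselves by more than 2 orders of magnitude. The log2 fold change of TG over T10-L1 DRG was 10.22 (standard error 1.94, edgeR adjusted p = 0.0254), and DESeq2 gave no adjusted p because it set the gene aside for its outlying count. *Gh*, on chromosome 11 from 106161585 to 106163179, had 13.3, 514, 461 and 26.3 CPM in TG and 0.306, 0.19, 0.0822 and 0.375 CPM in T10-L1 DRG, where the 4 libraries held 2, 2, 1 and 5 reads. Here TG libraries 2 and 3 were high and libraries 1 and 4 were low, and the groups did not overlap (log2 fold change 10.41, standard error 1.5, edgeR adjusted p = 0.0254). *Pomc*, on chromosome 12 from 3954951 to 3960618, had 332, 819, 584 and 5.62 CPM in TG and 3.52, 0.286, 1.64 and 0.525 CPM in T10-L1 DRG, with TG library 4 just above the highest T10-L1 DRG library (log2 fold change 8.65, standard error 1.44, edgeR adjusted p = 0.0254).

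The other members of the hormone list, *Cga*, *Lhb*, *Fshb* and *Tshb*, which encode the subunits of the glycoprotein hormones, had too few reads to be tested. Of the 11 markers of pituitary cells, none passed the filter on low counts. *Pou1f1*, the transcription factor that defines the lineages making prolactin and growth hormone, was at 0 in all 8 libraries, which allows up to 0.225 to 0.59 CPM. *Tbx19*, which encodes the T-box factor of corticotroph cells, had 397, 33, 5 and 0 reads in TG libraries 1 to 4 and 0 in T10-L1 DRG. The part of pituitary cells in the hormone reads was not tested.

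The bases before the transcription start of *Prl* and *Pomc* are shown because these hormone genes were called and have an entry in the promoter table. The sequences are the 250 bases upstream of the RefSeq start in GRCm38.p6, which is a later build than the mm9 of the counts, and *Gh* has no entry in the table used. Capitals mark ATGNATA, a core that POU1F1 recognizes, and TATAAA, the TATA box, each read on both strands, where overlapping matches run together.
Prl, chr13:27057320-27057569, plus strand: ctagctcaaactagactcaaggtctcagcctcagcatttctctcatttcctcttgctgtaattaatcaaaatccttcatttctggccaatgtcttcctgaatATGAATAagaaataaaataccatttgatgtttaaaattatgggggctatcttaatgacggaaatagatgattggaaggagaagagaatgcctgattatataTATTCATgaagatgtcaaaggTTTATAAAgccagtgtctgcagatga
Pomc, chr12:3954695-3954944, plus strand: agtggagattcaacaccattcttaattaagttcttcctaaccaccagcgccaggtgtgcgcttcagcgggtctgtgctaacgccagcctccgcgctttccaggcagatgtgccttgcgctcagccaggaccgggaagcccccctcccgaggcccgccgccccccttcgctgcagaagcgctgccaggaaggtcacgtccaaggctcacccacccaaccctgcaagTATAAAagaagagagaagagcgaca
The *Prl* stretch held ATGNATA on both strands and TATAAA on both strands, the last as 1 palindromic run beside the start. The *Pomc* stretch held 1 TATAAA on the plus strand and no ATGNATA. Of 32851 promoters in the table, 7.92% held ATGNATA on either strand and 12.4% held TATAAA, so that these matches are a description of the letters only.

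*Ptgds*, *Cyp2f2* and *Krt18* are the other members of that selection, and the same limit holds for them. *Ptgds*, which encodes the lipocalin-type prostaglandin D synthase made by leptomeningeal cells and oligodendrocytes as well as neurons, had 1091, 1991, 1067 and 646 CPM in TG and 50.9, 3.62, 7.32 and 14.7 CPM in T10-L1 DRG. The groups were far apart, and the TG libraries agreed within about a factor of 3 (log2 fold change 6.36, standard error 0.89, edgeR adjusted p = 0.0254). *Cyp2f2*, a cytochrome P450 gene best known from club cells of the airway, had 79.7, 23.2, 66.5 and 2.63 CPM in TG against 0.306, 0, 0 and 0.525 CPM in T10-L1 DRG (log2 fold change 7.87, standard error 1.45, edgeR adjusted p = 0.0254). *Krt18*, a keratin gene of simple epithelia, had 57.8, 13, 33.5 and 0 CPM in TG, with 1 read in all of T10-L1 DRG, and was too low to be tested. Of the 11 epithelial markers, 4 were tested and *Cyp2f2* was the 1 called.

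**Figure D1:**
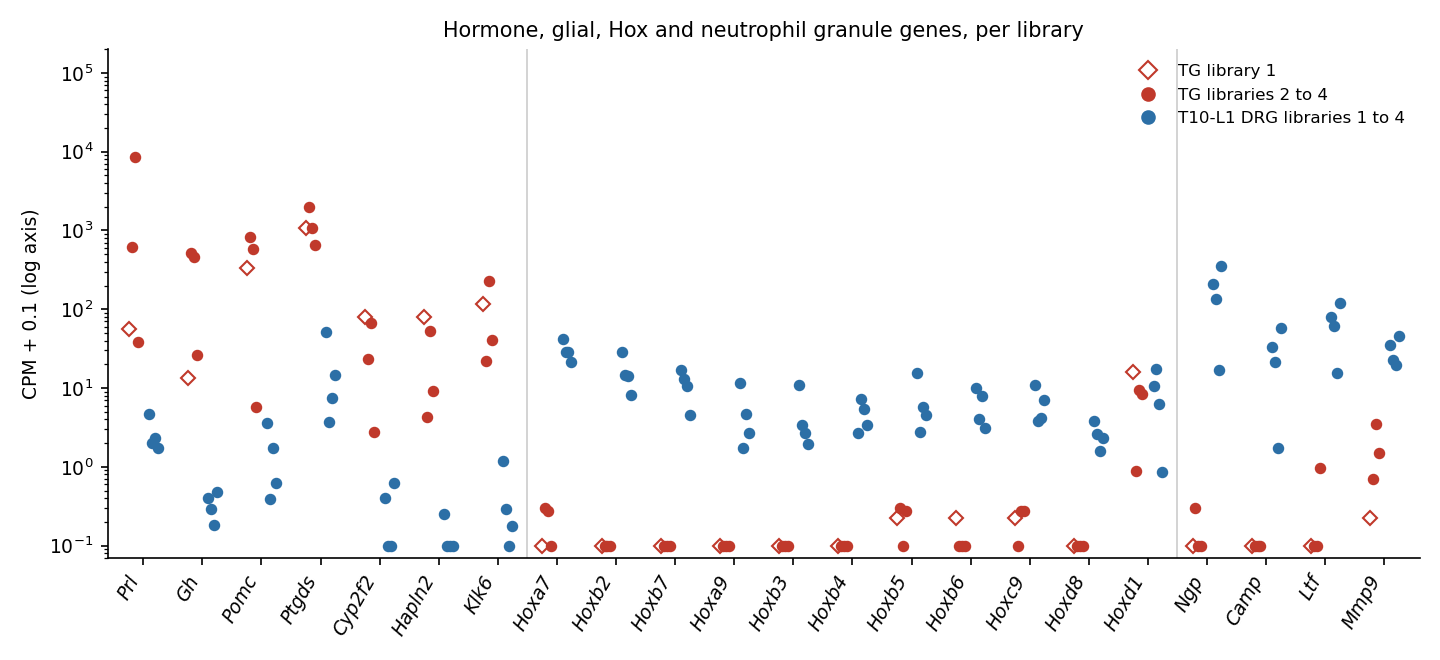
CPM plus 0.1 on a log axis for hormone and other TG genes (left), Hox genes (middle) and neutrophil granule genes (right), with 1 point per library, TG in red (library 1 as open diamonds) and T10-L1 DRG in blue. The left genes lie higher in TG with a wide spread among the TG libraries, 10 of the 11 Hox genes lie at or near 0 in TG with *Hoxd1* as the exception, and the granule genes lie higher in T10-L1 DRG, where library 3 is the lowest of the 4.

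Oligodendrocyte and myelin genes are described next. Oligodendrocytes make the myelin of the central nervous system, and Schwann cells that of the periphery. Of 12 oligodendrocyte markers, 10 were tested, 2 were higher in TG and 0 lower, with a median log2 fold change of 2.96 against -0.03 over all genes. Of 18 Schwann cell myelin genes, all tested, 5 were higher and 0 lower, with a median of 1.11. Over all genes tested, 4.33% were higher in TG and 1.54% lower.

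The called oligodendrocyte markers were *Hapln2* and *Klk6*. Both were at or near 0 in T10-L1 DRG and passed the filter on low counts through TG alone. The counts and the median of the oligodendrocyte list thus describe the tested genes and do not support a direction of the list. *Hapln2*, which encodes a link protein of the extracellular matrix at central nodes of Ranvier, had 80.2, 4.13, 52.9 and 8.96 CPM in TG libraries 1 to 4 and a single read in the 4 T10-L1 DRG libraries together. TG libraries 1 and 3 were high and libraries 2 and 4 were low (pooled ratio 1759, 95% exact counting interval 315 to 69552, edgeR adjusted p = 0.0254). Such intervals, here and below, pool the reads of each ganglion and leave out the spread between libraries. *Klk6*, a serine protease gene of mature oligodendrocytes, was also highest in TG libraries 1 and 3, with 116, 21.8, 227 and 41.1 CPM, against 1.07, 0.19, 0 and 0.075 CPM in T10-L1 DRG (log2 fold change 8.80, standard error 1.23, edgeR adjusted p = 0.0254). *Mog*, which encodes a protein of the outer face of central myelin, had 147, 10.4, 90.9 and 17.7 CPM in TG and 12.2, 0, 1.4 and 0.075 CPM in T10-L1 DRG. T10-L1 DRG library 1 lay above TG library 2, so the groups overlapped, and the gene was not called (log2 fold change 4.62, standard error 1.56, edgeR adjusted p = 0.112, DESeq2 adjusted p = 0.012). *Mobp*, a gene of central myelin as well, was not called either, with 1289.7, 349, 423 and 227 CPM in TG and 328, 2.47, 101 and 5.55 CPM in T10-L1 DRG. The whole list summed to 631 to 2561 CPM in TG and 261 to 907 CPM in T10-L1 DRG, with the highest sum in TG library 1, while *Opalin* had reads in TG library 4 only.

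Among the Schwann cell genes, *Mbp*, *A330049M08Rik* (also named *Ncmap*, a protein of noncompact myelin), *Pllp*, *S100b* and *Cldn19* were called. *Mbp*, which encodes the myelin basic protein of both kinds of myelin, had 32546, 23609, 13364 and 16714 CPM in TG and 12971, 4016, 5614 and 3639 CPM in T10-L1 DRG, with the lowest TG library just above the highest of T10-L1 DRG (log2 fold change 2.07, standard error 0.52, edgeR adjusted p = 0.046). *A330049M08Rik* had 1092, 2535, 1607 and 2764 CPM against 409, 209, 152 and 423 CPM (log2 fold change 3.13, standard error 0.50, edgeR adjusted p = 0.0254). *S100b*, a calcium-binding protein gene of glia, had 839, 1689.8, 1296 and 1586 CPM against 465, 242, 273 and 169 CPM (log2 fold change 2.63, standard error 0.41, edgeR adjusted p = 0.0254). The last pair of genes had clear gaps between the groups, and with *Mbp* they kept their calls under the length offset described below.

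Satellite glial markers did not move together. Of 13 tested, *Sparc* was higher in TG and *Cdh19* was lower, with a median log2 fold change of 0.20. *Sparc*, which encodes a matricellular protein, had 3373, 10595, 9726 and 10034 CPM in TG, where library 1 fell among the 3363, 3693, 3289.6 and 3323 CPM of T10-L1 DRG (log2 fold change 1.71, standard error 0.44, edgeR adjusted p = 0.0486). *Cdh19*, a cadherin gene of the Schwann cell lineage, had 739, 208, 273 and 237 CPM in TG and 1902, 2589, 1800.1 and 804 CPM in T10-L1 DRG (log2 fold change -1.96, standard error 0.45, edgeR adjusted p = 0.0374). Their exons are of like length, 3367 and 3054 bp. The 3 markers with exons under 2000 bp, *Apoe*, *Dbi* and *Fabp7*, had log2 fold changes of 1.61, 1.61 and 1.58, while the longer *Sparcl1*, *Timp3* and *Gja1* had -0.69, -0.82 and -1.09, and edgeR called none of these 6 (adjusted p from 0.0658 to 0.209). *Apoe*, the apolipoprotein E gene, had 20189, 49479, 58602 and 56559.5 CPM in TG and 21019.9, 16657, 14811 and 26557 CPM in T10-L1 DRG, and TG library 1 again lay in the range of T10-L1 DRG.

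**Figure D2:**
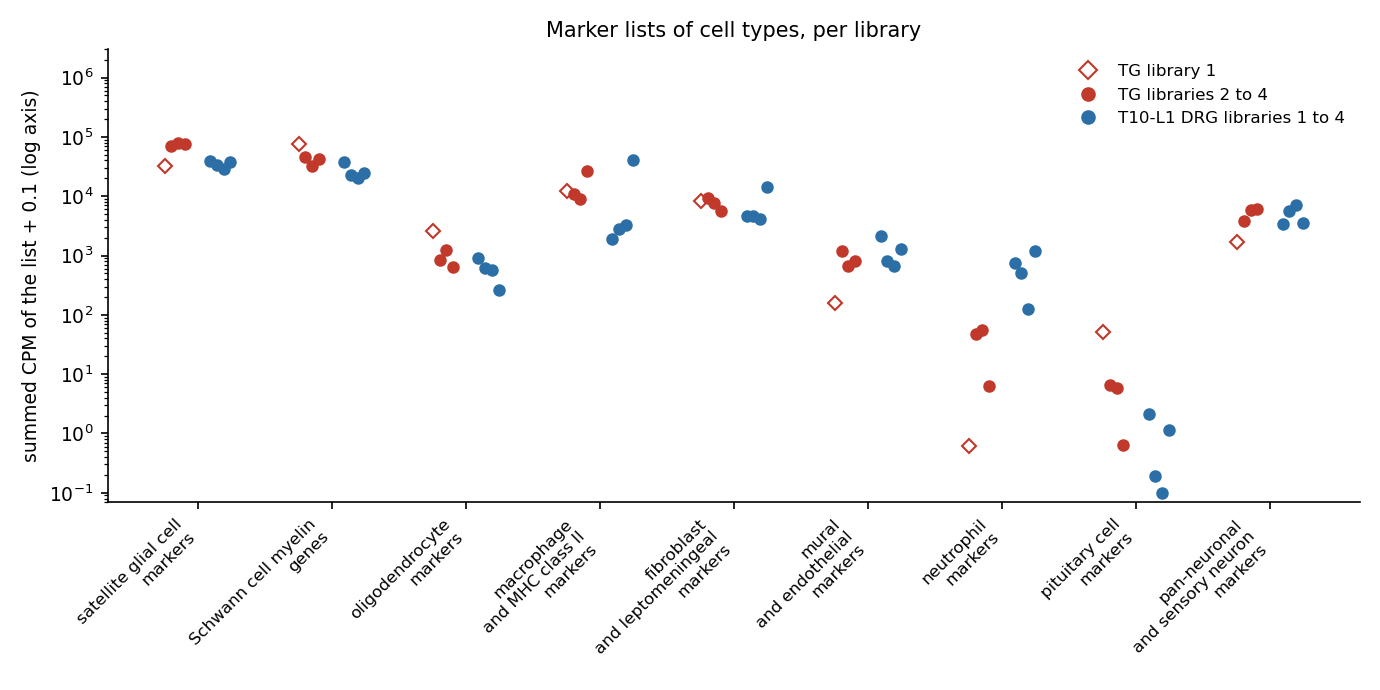
Summed CPM plus 0.1 on a log axis for 9 marker lists, with 1 point per library, TG in red (library 1 as open diamonds) and T10-L1 DRG in blue. Satellite glial sums of TG libraries 2 to 4 lie above T10-L1 DRG and that of TG library 1 does not, neutrophil sums are higher in T10-L1 DRG, and T10-L1 DRG library 4 has the highest macrophage sum at 40581 CPM.

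Short transcripts made up a larger share of the TG reads. Genes with exons under 1000 bp received 3.93%, 9.92%, 9.58% and 9.55% of the reads in TG libraries 1 to 4 and 2.99%, 3.12%, 2.69% and 3.64% in T10-L1 DRG libraries 1 to 4. The means were 8.24% ± 2.88 in TG and 3.11% ± 0.398 in T10-L1 DRG (SD, n = 4 each), a difference of 5.13 percentage points (p = 0.0286 in a two-sided exact permutation test, which cannot give less with 4 libraries against 4). TG libraries 2 to 4 had about 3 times the share of T10-L1 DRG, while TG library 1 exceeded the highest T10-L1 DRG library by little. Under 500 bp and under 2000 bp TG library 1 fell within T10-L1 DRG, and p was 0.0571 in both.

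The fold change followed exon length across all genes. The median log2 fold change of TG over T10-L1 DRG was 1.41 for the 59 tested genes under 500 bp, 1.68 for 394 genes of 500 to under 1000 bp and 0.98 for 1843 genes of 1000 to under 2000 bp. It was -0.09 for 4486 genes of 2000 to under 4000 bp, -0.34 for 4560 genes of 4000 to under 8000 bp and -0.23 for 1465 longer genes. In other words, short transcripts were on the TG side of the median gene and long ones on the side of T10-L1 DRG. Of the genes of 500 to under 1000 bp, 113 were called higher in TG (28.7%) and 1 lower, while of those of 4000 to under 8000 bp 59 were higher (1.29%) and 105 lower (2.30%). Of the 556 genes higher in TG with a known length, 61.9% were under 2000 bp, against 2.53% of the 198 higher in T10-L1 DRG and 17.9% of all genes tested with a length. The union of exons counts every annotated isoform and so exceeds the length of the transcript that is made for many genes.

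When the trend with exon length was removed in each library by an offset, edgeR called 338 genes higher in TG (2.64%) and 30 higher in T10-L1 DRG (0.234%) of 12807 with a length, so the higher calls went from 73.7% to 91.8% of all calls. The median of all genes shifted to 0.27 in that fit, and of the genes first called, 228 stayed higher and 29 stayed lower. With the offset fitted without TG library 1 the calls were 1153 higher (8.68%) and 1076 lower (8.10%).

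**Figure D3:**
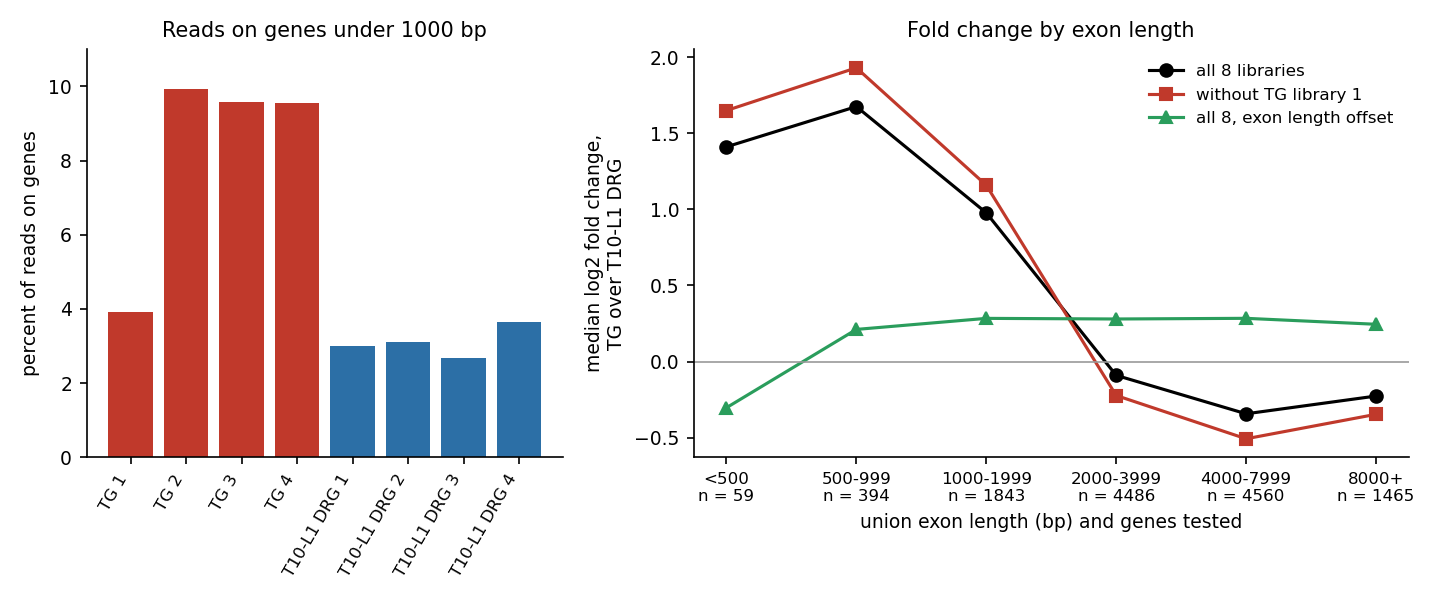
Left, percent of reads on genes with a union exon length under 1000 bp in each library. Right, median log2 fold change of TG over T10-L1 DRG in classes of exon length, with all 8 libraries, without TG library 1 and with the exon length offset. TG libraries 2 to 4 stand at 9.55% to 9.92%, and the medians go from 1.68 at 500 to under 1000 bp to -0.34 at 4000 to under 8000 bp before the offset.

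Genes of the translation, respiration and protein degradation machinery, most of them short, were among those on the TG side. Of 79 cytosolic ribosomal protein genes, 67 were tested, and 17 were higher in TG and 0 lower (median log2 fold change 1.57). Of 76 nuclear-encoded subunits of the respiratory chain and ATP synthase, 74 were tested, with 49 higher and 0 lower (median 1.93). Of 31 proteasome subunits, all tested, 13 were higher and 0 lower (median 1.29). The median exon lengths of the genes tested were 1560.5, 1348.5 and 2300 bp, against 3813 bp for all genes. On library totals without TMM factors the medians were 1.19, 1.52 and 0.88, and with the length offset 0.76, 0.85 and 0.64 beside 0.27 for all genes. With that offset 10, 18 and 8 genes were higher and 0 lower, where 2.64% of all genes were higher.

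*Rplp0*, which encodes a protein of the ribosomal stalk, had 291, 783, 630.2 and 690.5 CPM in TG libraries 1 to 4 and 193, 174, 144 and 270.1 CPM in T10-L1 DRG (log2 fold change 2.00, standard error 0.40, edgeR adjusted p = 0.0282). *Ndufa5*, a subunit of complex I and the respiratory gene with the largest fold, had 61.4, 361, 319.6 and 334 CPM in TG and 70.8, 64.6, 56.2 and 51.5 CPM in T10-L1 DRG (log2 fold change 2.56, standard error 0.52, edgeR adjusted p = 0.0285). In that gene TG library 1 lay inside the range of T10-L1 DRG and the other 3 were more than 4 times higher. *Psmc3*, an ATPase subunit of the proteasome cap, behaved otherwise, with 482, 476, 457 and 458 CPM in TG and 179.9, 201, 193 and 208 CPM in T10-L1 DRG, so that TG library 1 was at the level of the others (log2 fold change 1.62, standard error 0.24, edgeR adjusted p = 0.0254). Ribosomal protein genes have many near-identical pseudogenes, so their counts are uncertain.

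The summed levels showed the same division of the TG libraries. Ribosomal protein genes summed to 3508, 8175, 6975 and 7170.3 CPM in TG libraries 1 to 4 and 2257 to 3594 CPM in T10-L1 DRG. Respiratory chain genes summed to 11874, 25439, 26972 and 26905 CPM and 9079.7 to 11887 CPM. In both lists TG library 1 lay within the range of T10-L1 DRG.

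Other genes in TG came from lists of various functions or from none. *Cryab*, which encodes the small heat-shock protein alpha B-crystallin, had 1793, 4796, 3314 and 4250.1 CPM in TG and 988, 910.02, 809 and 729 CPM in T10-L1 DRG (log2 fold change 2.45, standard error 0.40, edgeR adjusted p = 0.0254) and was the 1 called member of the heat-shock list. *Ldhb*, the lactate dehydrogenase B gene, was the 1 called member of the large-fibre list, at 387, 1266, 1033 and 1129 CPM against 389, 313, 232 and 189 CPM (log2 fold change 2.18, standard error 0.44, edgeR adjusted p = 0.0272). *Nefh*, the heavy neurofilament gene of the same list, had 26.9, 165, 226 and 401 CPM against 43.9, 28.4, 77.4 and 18.4 CPM and was not called with all 8 libraries (log2 fold change 2.69, standard error 0.74, edgeR adjusted p = 0.0599). Without TG library 1, the lowest of the TG libraries for *Nefh*, its log2 fold change was 3.06 (edgeR adjusted p = 0.00171). *Beta-s*, a beta-globin symbol of red blood cells, had 181, 1356, 679.5 and 464 CPM in TG and 64.4, 54.1, 88.7 and 62.8 CPM in T10-L1 DRG (log2 fold change 3.73, standard error 0.61, edgeR adjusted p = 0.0254), while the other 4 globin symbols listed were at 0 in all 8 libraries.

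The 12 genes with the largest log2 fold changes toward TG among 406 that were called without overlap and above 5 RPKM were *Gh*, *Prl*, *Hapln2*, *Klk6*, *Pomc*, *Cyp2f2*, *Cd3g*, *Bfsp2*, *Ptgds*, *Gchfr*, *2610034M16Rik* and *Stmn4*. *Cd3g*, a T cell receptor component gene, had 34.4, 6.1, 6.87 and 5.97 CPM in TG with library 1 far above the rest, and 2 reads in T10-L1 DRG. *Bfsp2*, which encodes a filament protein of the lens, had 57.8, 5.51, 7.73 and 2.28 CPM in TG and 0, 0.0952, 0 and 0.75 CPM in T10-L1 DRG, and was again led by library 1. *Gchfr*, the regulator of GTP cyclohydrolase, had 14, 11, 3.44 and 9.13 CPM in TG against 0.306, 0, 0.411 and 0 CPM. *Stmn4*, a stathmin family gene of neurons and oligodendrocytes, had 38.5, 9.44, 52.7 and 15.1 CPM against 5.2, 0.666, 3.86 and 2.92 CPM, with the order of TG libraries seen for *Klk6*. *Mgp* and *Slc6a13*, genes of fibroblasts and the leptomeninges, were called as well, the first at 158, 1082, 593 and 415 CPM against 141, 88.9, 116 and 238 CPM and the second at 33.3, 107, 31.6 and 17 CPM against 9.32, 2.76, 5.34 and 12.2 CPM.

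On the side of T10-L1 DRG, Hox genes were the class with the widest gap. Of the 39 Hox genes, 4 had no read in any of the 8 libraries and 11 passed the filter. Because the filter needed reads in 4 libraries, genes absent from TG passed through T10-L1 DRG alone, so the count describes those 11 and does not support a direction of the list. Of them 9 were higher in T10-L1 DRG and 0 in TG, against 1.54% and 4.33% of all genes tested. Among the 11, 10 had fewer CPM in all TG libraries than in any T10-L1 DRG library, against 13.2% of all genes tested. The fitted median log2 fold change was -7.86, and -4.48 when genes at 0 in all TG libraries were set to the bound that 3 counts per library allow. Over all 39 genes the sum was 6.89 to 16.5 CPM in TG and 91.7 to 243 CPM in T10-L1 DRG.

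*Hoxa7*, on chromosome 6 from 52164490 to 52171853, had 0, 1, 1 and 0 reads in TG and 270, 296, 348 and 281 reads in T10-L1 DRG (pooled ratio 344, 95% exact counting interval 94.9 to 2841, edgeR adjusted p = 0.0254). *Hoxb2*, on chromosome 11 from 96212946 to 96217003, had no read in TG and 188, 153, 173 and 108 in T10-L1 DRG, a level at least 32.6-fold higher (edgeR adjusted p = 0.0254). *Hoxb7* had no read in TG either and 110, 137, 127 and 60 in the other ganglion, at least 22.2-fold higher (edgeR adjusted p = 0.0283). The separation of the groups was complete in each of these 3 genes. *Hoxb3*, *Hoxb4* and *Hoxa9* were also at 0 in TG and had at least 9.24-fold, 9.14-fold and 10.1-fold more in T10-L1 DRG, at edgeR adjusted p from 0.0405 to 0.0467. *Hoxb5*, *Hoxb6* and *Hoxc9* had 3, 1 and 3 reads in TG in all, with pooled ratios of 49.1, 95% exact counting interval 16.6 to 239.6, 138, 95% exact counting interval 24.5 to 5476 and 48.1, 95% exact counting interval 16.3 to 235. *Hoxd8* was at 0 in TG and had 24, 26, 18 and 30 reads in T10-L1 DRG, but was not called (edgeR adjusted p = 0.0552, DESeq2 adjusted p = 0.00334).

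*Hoxd1* stood apart from this class. It had 125, 4, 54 and 47 reads in TG libraries 1 to 4 and 68, 183, 75 and 10 in T10-L1 DRG libraries 1 to 4. The ranges overlapped fully (log2 fold change 0.33, standard error 1.06, edgeR adjusted p = 0.896), and the direction turned without TG library 1 (-0.06). In RPKM the gene had 4.59 ± 3.32 (SD, n = 4) in TG and 4.66 ± 3.78 (SD, n = 4) in T10-L1 DRG. *Hoxd1* is known from the development of nociceptors, and the neighbouring *Hoxd3* and *Hoxd4* had at most 20 reads in any library. Exons of *Hoxa7* share 20.4% of their length with *2700086A05Rik* and those of *Hoxb7* 26.2% with *Hoxb8*, and the counts there depend on how the counter assigned shared reads.

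Neutrophil granule genes were the second class on this side. Neutrophils carry antimicrobial proteins in granules, which are made before the cells leave the bone marrow. Of 12 markers, 9 were tested, with a median log2 fold change of -3.89. Among the 9, 4 were higher in T10-L1 DRG and 0 in TG, against 1.54% and 4.33% of all genes tested. Without overlap, 7 were lower in TG, against 13.2% of all genes tested. Genes such as *Ngp*, *Camp* and *Ltf* passed the filter through T10-L1 DRG alone, so these counts describe the 9 genes and do not support a direction of the list. *Ngp*, the neutrophilic granule protein gene, had 0, 1, 0 and 0 reads in TG and 1372, 1405, 207 and 4679 in T10-L1 DRG (pooled ratio 4408, 95% exact counting interval 791 to 174139, edgeR adjusted p = 0.0247). *Camp*, the cathelicidin gene, had no read in TG and 218, 224, 20 and 778 in T10-L1 DRG, at least 56.9-fold more (edgeR adjusted p = 0.0286). *Ltf*, the lactotransferrin gene, had 0, 0, 0 and 0.878 CPM in TG and 79.2, 60.7, 15.5 and 121 CPM in T10-L1 DRG (log2 fold change -7.91, standard error 1.30, edgeR adjusted p = 0.0254). In these 3 genes T10-L1 DRG library 4 was highest and library 3 lowest. *Mmp9*, a gelatinase gene, was called as well. *S100a8* and *S100a9*, the calprotectin genes, had 0, 23, 21.6 and 0.176 and 0, 4.33, 17.7 and 0 CPM in TG against 199, 124, 23.7 and 307 and 118, 109.9, 18.7 and 183 CPM in T10-L1 DRG, with no overlap of the groups, but edgeR called neither (adjusted p = 0.182 and 0.143), and DESeq2 called the second (adjusted p = 0.0703 and 0.0444). The defining azurophil granule genes *Elane* and *Mpo* had at most 2 reads in any library. The whole list summed to 0.508 to 56.2 CPM in TG and 126 to 1189.7 CPM in T10-L1 DRG.

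The 12 genes with the largest log2 fold changes toward T10-L1 DRG among 178 that met the same conditions were *Ngp*, *Camp*, *Ltf*, *Hoxa7*, *Afap1l1*, *Nudt12*, *Pcdhb4*, *Ggta1*, *Rapgef5*, *Tspan12*, *Ptgs2* and *Mmp9*. *Ggta1*, the alpha-1,3-galactosyltransferase gene whose product makes the glycan bound by the lectin IB4, had 0.254, 1.77, 9.45 and 4.39 CPM in TG and 104, 57.4, 191 and 99.8 CPM in T10-L1 DRG (log2 fold change -4.45, standard error 0.91, edgeR adjusted p = 0.0285). *Tspan12*, a tetraspanin gene of Norrin signalling, had 0.254, 0.787, 2.92 and 5.79 CPM against 84.2, 57.5, 37.1 and 51.8 CPM (log2 fold change -4.16, standard error 0.90, edgeR adjusted p = 0.0328). *Rapgef5*, a nucleotide exchange factor gene for Rap GTPases, had 0.508, 0.59, 4.3 and 0.878 CPM against 75, 30.6, 55.9 and 13.3 CPM (log2 fold change -4.39, standard error 0.96, edgeR adjusted p = 0.0335). In all 3 genes TG library 1 was the lowest of the 8, and the other TG libraries still lay below every T10-L1 DRG library. *Ptgs2*, the inducible cyclooxygenase gene, was uneven in T10-L1 DRG at 75.7, 28.5, 8.63 and 166 CPM and had 1.14, 3.15, 2.41 and 5.62 CPM in TG.

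A list of 12 genes low in TG was joined here from separate statements of the study. *Ggta1*, *Tspan12* and *Rapgef5* are among genes that it names as present in other ganglia but not in TG. The list also holds 3 of the Hox genes that the study calls specific to DRG against TG. All 12 were tested, and all 12 had fewer CPM in every TG library than in any T10-L1 DRG library, as did 13.2% of all genes tested. edgeR called 6 of them and DESeq2 11, all lower in TG, against 1.54% and 5.79% of all genes tested. Their median log2 fold change was -3.78. The list was chosen on these samples, so the count is not independent evidence of its direction. *Coro1c*, an actin-binding coronin gene outside those 6, had 0.635, 6.3, 25.4 and 16.9 CPM against 112, 98.6, 147 and 134 CPM (log2 fold change -2.93, standard error 0.83, edgeR adjusted p = 0.0645). *Ranbp6* and *Map3k12* were not called by edgeR either, at adjusted p = 0.0743 and 0.102, and were at 1 read each in TG library 1.

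Neuronal classes gave few calls, where edgeR called 5.87% of all genes tested. Of the 10 tested genes of non-peptidergic and itch neurons, 1 was higher in T10-L1 DRG and 0 in TG, with a median log2 fold change of -1.65. The called gene was *Plcb3*, the phospholipase C gene that acts downstream of histamine and Mas-related receptors, at 78.1, 48.2, 50.9 and 43.9 CPM in TG and 91.7, 301, 409 and 243 CPM in T10-L1 DRG (log2 fold change -1.90, standard error 0.43, edgeR adjusted p = 0.0368). *Mrgprd*, the receptor gene that marks non-peptidergic nociceptors of the skin, had 0.381, 49, 18.2 and 27.4 CPM and 23.7, 195, 309 and 154 CPM (log2 fold change -2.42, standard error 1.05, edgeR adjusted p = 0.214). *P2rx3*, the ATP-gated channel gene, had 36.6, 31.3, 34.4 and 27.4 CPM and 17.7, 147, 207 and 159.97 CPM (log2 fold change -1.69, standard error 0.60, edgeR adjusted p = 0.126). For both, T10-L1 DRG libraries 2 to 4 were high and library 1 lay among or below the TG libraries. *Gfra2*, a receptor gene for neurturin, did not overlap, at 4.82, 32.7, 22.9 and 36.9 CPM and 69.9, 144, 138 and 122 CPM, and was called by DESeq2 only (edgeR adjusted p = 0.0893, DESeq2 adjusted p = 0.02). Without TG library 1, edgeR called 3 of the 10 genes lower in TG and 0 higher, beside 12.5% and 14.2% of all genes.

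Peptidergic genes, C-low-threshold mechanoreceptor genes, cold neuron genes, sensory transcription factors, TRP channels, voltage-gated sodium and calcium channels, and the group of P2X, acid-sensing, HCN and Piezo channels had 0 called genes of 10, 6, 3, 21, 13, 12, 13 and 13 tested with edgeR. At an unadjusted p under 0.05 they had 2, 1, 0, 1, 3, 4, 0 and 1 genes, where 21.6% of all genes tested pass that threshold. With DESeq2 at an adjusted p under 0.05 they had 2, 1, 0, 1, 2, 2, 0 and 0. Over all genes edgeR called 5.87%, and DESeq2 called 9.64% higher in TG and 5.79% higher in T10-L1 DRG. With lists this small, 0 edgeR calls does not set them apart from all genes. *Trpv2*, the channel gene of larger sensory neurons, had 0.635, 3.34, 9.11 and 5.97 CPM in TG and 9.63, 66.5, 54.7 and 60.1 CPM in T10-L1 DRG without overlap (log2 fold change -2.93, standard error 0.89, edgeR adjusted p = 0.0806). *Trpv1*, the capsaicin receptor gene, had 9.9, 4.72, 7.56 and 2.63 CPM and 70.9, 37.8, 13.3 and 10.7 CPM, also without overlap (log2 fold change -2.05, standard error 0.77, edgeR adjusted p = 0.15). *Avil*, the advillin gene of sensory neurons, had 23.7, 76.7, 59.8 and 57.8 CPM and 129, 244, 366 and 194 CPM (log2 fold change -1.70, standard error 0.47, edgeR adjusted p = 0.0583). All 3 had fewer CPM in each TG library than in any T10-L1 DRG library, as did 13.2% of all genes tested. The gap was narrow for *Trpv2* (9.11 against 9.63 CPM) and *Trpv1* (9.9 against 10.7 CPM). edgeR called none of them, and DESeq2 called all 3 (adjusted p = 0.00485, 0.0319 and 0.00882). *Avil* is 1 of the 20 neuronal markers, all tested, whose median log2 fold change was 0.22. It was the 1 marker of that list without overlap. edgeR called 0 of the 20, and DESeq2 called 1 higher in TG and 2 lower. Without TG library 1 edgeR called 4 higher and 1 lower, beside 14.2% and 12.5% of all genes. Of 36 potassium channel genes tested, *Kcna6* was the 1 called, at 157, 42.1, 54.8 and 43.4 CPM against 373, 623, 426 and 152 CPM (log2 fold change -2.08, standard error 0.50, edgeR adjusted p = 0.0405). *Kcnk13*, a two-pore channel gene, had 0.254, 1.38, 8.25 and 9.48 CPM against 48, 40.5, 67.4 and 58.6 CPM and was called by DESeq2 only (edgeR adjusted p = 0.0808, DESeq2 adjusted p = 0.00488).

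Genes that respond to injury, inflammation or dissociation were called in small numbers. Over all genes tested, edgeR called 4.33% higher in TG and 1.54% higher in T10-L1 DRG. Of 12 tested axon injury and regeneration genes, *Flrt3* and *Anxa1* were higher in T10-L1 DRG and *Stmn4* in TG. *Flrt3*, an adhesion protein gene, had 21.7, 38.4, 22.2 and 19.8 CPM in TG and 81.2, 214, 234 and 62.3 CPM in T10-L1 DRG (log2 fold change -2.14, standard error 0.50, edgeR adjusted p = 0.0382). *Nfkbie*, an inhibitor of NF-kB, was the 1 of 16 inflammatory genes called, at 10.9, 8.07, 21 and 7.02 CPM against 31.6, 61, 138 and 80.5 CPM (log2 fold change -2.38, standard error 0.58, edgeR adjusted p = 0.0429). *Irgm1*, an interferon-induced GTPase gene, was the 1 of 17 interferon genes, with T10-L1 DRG library 3 far above the others at 199.9, 227, 774 and 129 CPM, against 89.5, 55.1, 38.7 and 33.9 CPM in TG (log2 fold change -2.29, standard error 0.57, edgeR adjusted p = 0.0448). Of 17 immediate-early genes, which rise when cells are dissociated, 0 were called by edgeR, 5 had an unadjusted p under 0.05 (21.6% of all genes tested do), and DESeq2 called 1. Without TG library 1 edgeR called 7 of them lower in TG and 0 higher, beside 12.5% and 14.2% of all genes.

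Markers of vessels and connective tissue gave few calls. Over all genes tested, edgeR called 4.33% higher in TG and 1.54% higher in T10-L1 DRG, and counts this small do not set these lists apart from all genes. *Rgs5*, a pericyte gene, was the 1 of 17 mural and endothelial markers called and was higher in T10-L1 DRG, at 258, 90.4, 89.5 and 189 CPM against 19.8, 47, 17.9 and 33.5 CPM (log2 fold change -2.02, standard error 0.50, edgeR adjusted p = 0.0448). *Col3a1*, a fibrillar collagen gene, was higher in T10-L1 DRG too, at 645, 864, 783 and 2336 CPM against 432, 131, 121 and 85.2 CPM (log2 fold change -2.33, standard error 0.59, edgeR adjusted p = 0.046). Of 13 tested fibroblast and leptomeningeal markers it was the 1 called lower in TG. *Mgp* and *Slc6a13* were the 2 called higher, and the median log2 fold change of the list was 0.67. Of 16 macrophage and MHC class II markers 0 were called by either tool, with 1 at an unadjusted p under 0.05 beside 21.6% of all genes, and they summed to 12137, 10844, 9022 and 26259 CPM in TG and 1908, 2769, 3329 and 40581 CPM in T10-L1 DRG, so that library 4 was the highest on both sides.

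**Figure D4:**
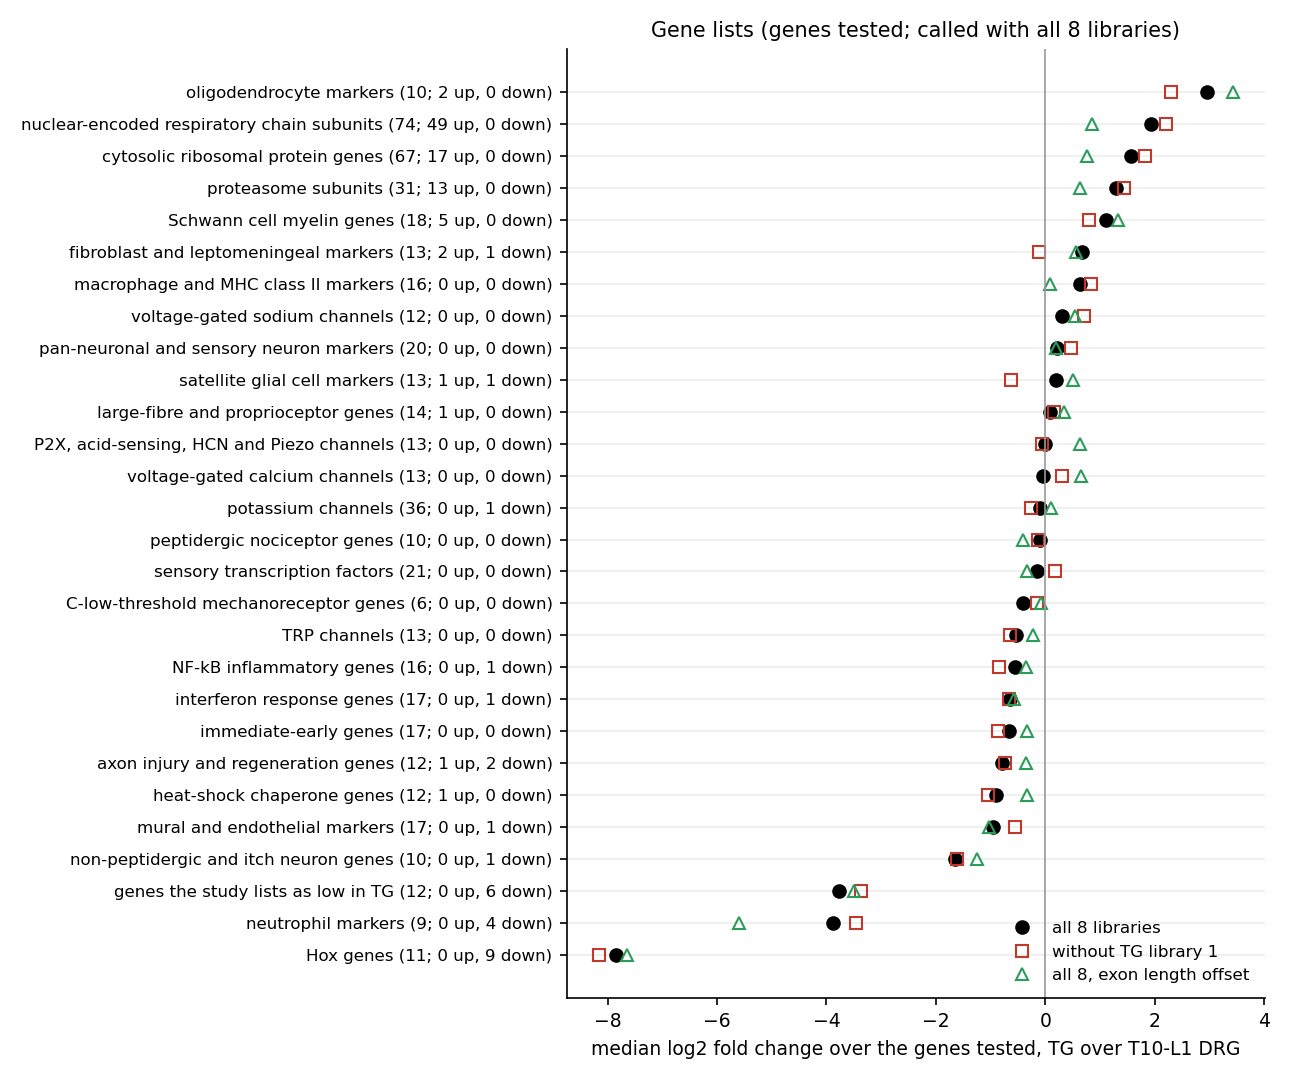
Median log2 fold change of TG over T10-L1 DRG over the tested genes of each list with 6 or more tested, with all 8 libraries, without TG library 1 and with the exon length offset. Brackets give the genes tested and those called higher (up) or lower (down) in TG with all 8 libraries. Hox genes at -7.86 and neutrophil markers at -3.89 lie lowest and oligodendrocyte markers at 2.96 highest, and the satellite glial median goes from 0.20 to -0.63 without TG library 1.

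TG library 1 stood far from TG libraries 2 to 4. Over all 22609 genes its Spearman correlation with them was 0.809 to 0.816, while those 3 libraries correlated at 0.926 to 0.937 with each other and the T10-L1 DRG libraries at 0.890 to 0.939. The mean squared difference of log2(CPM + 1) was 3.16 to 3.21 between TG library 1 and the other TG libraries, 0.611 to 0.750 among the other TG libraries, and 0.775 to 1.38 among T10-L1 DRG libraries. TG library 1 differed from T10-L1 DRG by 3.26 to 3.52, whereas TG libraries 2 to 4 differed from T10-L1 DRG by 1.36 to 1.93. By Spearman correlation TG library 1 was nearer to T10-L1 DRG libraries 2 to 4, at 0.823 or more, than to any other TG library, and stood at 0.804 with T10-L1 DRG library 1. In mean squared difference, the distance of TG library 1 from its own group exceeded the distance between the ganglia for the other libraries.

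Part of this distance lay in genes that were missing. Of 5254 genes with 20 CPM or more in each of TG libraries 2 to 4, 340 were under 1 CPM in TG library 1 (6.47%) and 105 had no read. The same count for the other 7 libraries, each against the remaining 3 of its group, was 0 to 11. *Cd151*, a tetraspanin gene, had 0.762, 265, 199.99 and 225 CPM in TG libraries 1 to 4, *Faim*, an apoptosis inhibitor gene, had 0.127, 165, 166 and 121 CPM, and *Sirt3*, a mitochondrial deacetylase gene, had 0.127, 95.2, 105 and 83.1 CPM. *Rsph9*, *Jkamp*, *Pdcl3*, *Mgst1*, *Mtap7d2*, *Phax* and *Rnh1* completed the 10 genes with the largest gaps below the nearest TG library at a mean of 20 CPM or more, all at 0.889 CPM or less in TG library 1. In T10-L1 DRG these genes were detected in every library, *Cd151* at 195, 203, 254 and 218 CPM.

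In the other direction 35 genes had 20 CPM or more in TG library 1 and under 1 CPM in the other 3, against 0 to 11 for the other 7 libraries. By another rule, a mean of 20 CPM or more over the TG libraries and the largest gap in log2(CPM + 1) to the nearest TG library, the first 10 genes above were *Csf2rb*, *Ccr7*, *Gja4*, *Hk3*, *Lysmd3*, *Pstpip2*, *Zfp619*, *Trpc2*, *Slc25a25* and *Il1a*. *Csf2rb*, a cytokine receptor subunit gene of myeloid cells, had 118, 3.15, 0 and 2.99 CPM in TG libraries 1 to 4, *Ccr7*, a chemokine receptor gene, had 172, 6.3, 2.58 and 5.62 CPM, and *Il1a*, the interleukin 1 alpha gene, had 304, 1.38, 7.73 and 17.9 CPM. The T10-L1 DRG libraries had intermediate values for *Csf2rb*, at 10.2, 21.3, 14.3 and 51.1 CPM, and spread widely for *Il1a*, at 131, 0.0952, 61.8 and 199.9 CPM. These genes were chosen for their gap, so the values are a description.

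By lists, the median log2(CPM + 1) of TG library 1 was below those of TG libraries 2 to 4 in 18 of 32 lists, above them in 8 and among them in 6. The lists below included pan-neuronal markers (5.43 against 6.48 to 6.94), voltage-gated sodium channels (3.03 against 5.06 to 5.24), potassium channels (0.75 against 2.99 to 3.38) and mural and endothelial markers (0.33 against 4.24 to 5.16). The lists above included oligodendrocyte markers (6.79 against 4.00 to 5.62), fibroblast and leptomeningeal markers (8.08 against 6.43 to 7.04), NF-kB genes (5.92 against 4.51 to 5.14) and immediate-early genes (9.34 against 8.21 to 8.70). In 8 of the 26 lists where TG library 1 lay outside the other TG libraries, it lay within the range of T10-L1 DRG. Fewer detected genes and a short-gene share near that of T10-L1 DRG moved together in this library, and their part in its distance was not tested. Of the 11 tested Hox genes 10, *Hoxd1* being the exception, and *Ptgds*, *Klk6* and *Ngp* did not overlap between the ganglia with TG library 1 included.

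**Figure D5:**
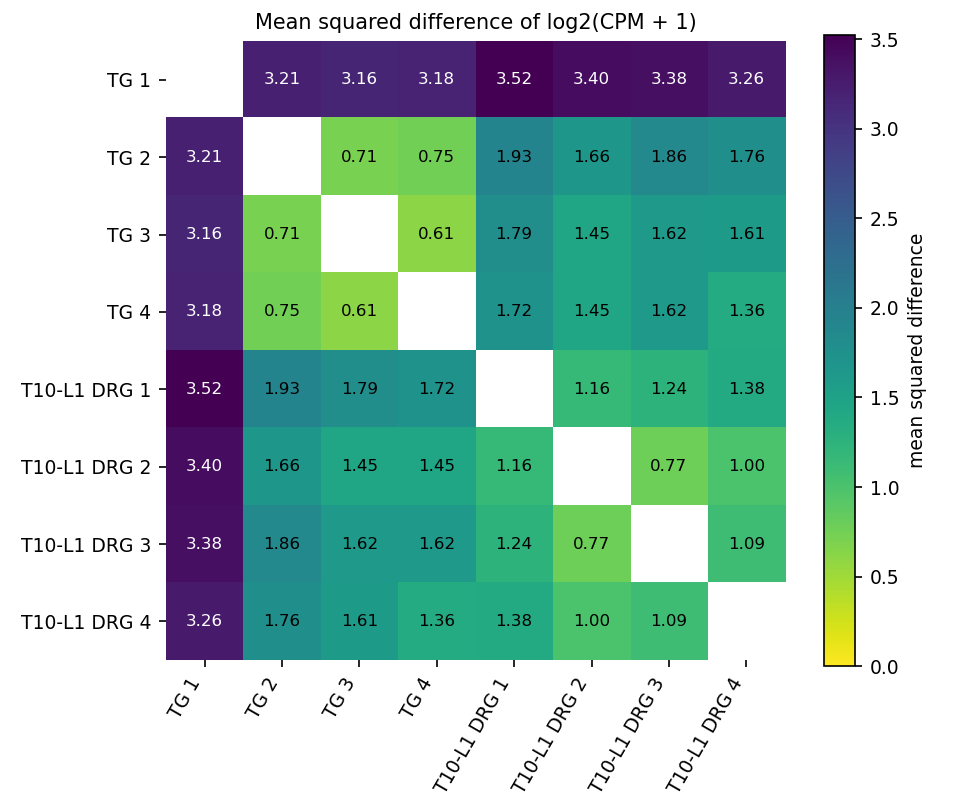
Mean squared difference of log2(CPM + 1) over 22609 genes for each pair of libraries, with darker cells for larger differences. The row of TG library 1 runs from 3.16 to 3.52, and no pair of the other 7 libraries exceeds 1.93.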

How the data were processed

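Gene expression was measured by RNA-seq in 4 TG and 4 T10-L1 DRG libraries, 8 of the 16 in the series, grouped by their titles. The authors deposited raw read counts per gene, made from 50 bp single reads with bcl2fastq, TopHat2 (mm9) and HTSeq-count. Annotation, tool versions and strand setting are not given in the sources used here, so reads of overlapping genes on opposite strands may not be told apart. Counting summary rows, 29.6% to 51.5% of reads as no feature, were dropped, leaving 22609 genes.

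Counts were analysed in R 4.3.3 with edgeR 4.0.16 (filterByExpr, TMM, quasi-likelihood test, Benjamini-Hochberg) and, as an alternative, DESeq2 1.42.0. Union exon lengths came from the GENCODE annotation of mm9 for 21678 genes, 51 of them matched by a synonym. The length offset removed a lowess trend (span 0.3) of each library. A gene with no read in a group was compared with a floor of 3 counts per library. Permutation tests used SciPy 1.17.1. All scripts that fit models were tested on simulated data.

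The comparison, the 34 gene lists (659 of 660 genes found) and the rules were chosen with earlier results of these data known. Named genes were list members (those with the largest or smallest fold change and those that define a list), the 12 called genes per direction with the largest fold change, no overlap in CPM and a mean RPKM above 5, and the 10 genes per direction with the largest gap of TG library 1 at a mean of 20 CPM or more. Other settings tried were other normalizations, filters and tests, all 16 libraries, the length offset, and leaving out each library. Likelihood-ratio tests, library totals without TMM and the offset without TG library 1 were added after seeing the data. Some genes are not reported here.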

Additional observations from a re-analysis of the deposited data

Results flagged for a closer look

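In 228 groups of 4 libraries, 25 values lay far from the other 3 of their group by Dixon's test at its 95% critical value, and chance flags about 1 in 20 groups. TG library 1 accounted for 14 of them. It was above the other TG libraries in *Kcna6* (157 CPM), *Col3a1* (432 CPM), *Cdh19* (739 CPM), *Sparcl1* (1051 CPM), *Cd3g* (34.4 CPM), *Bfsp2* (57.8 CPM), *Timp3* (2050 CPM) and *Tbx19* (50.4 CPM). Its summed level was also above for the immediate-early genes (24652 CPM). The sum of the pituitary cell markers (50.4 CPM) was flagged too, but it came from *Tbx19* alone and is not a separate value. It was below the other TG libraries in *Sparc* (3373 CPM), *Ndufa5* (61.4 CPM), the sum of respiratory chain genes (11874 CPM) and the share of reads on genes under 1000 bp (3.927%).

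In the other TG libraries, *Prl* (8455 CPM) and *Rapgef5* (4.3 CPM) were high in library 3, *Flrt3* (38.4 CPM) was high in library 2, and the heat-shock chaperone genes summed low in library 4 (5632 CPM). In T10-L1 DRG, library 1 was high in *Hoxb3* (10.9 CPM) and *Mog* (12.2 CPM), library 2 in the sum of the proteasome subunits (4394 CPM) and library 3 in *Irgm1* (774 CPM). Library 4 was high in *Col3a1* (2336 CPM) and in the sums of fibroblast and leptomeningeal markers (14078 CPM) and macrophage markers (40581 CPM).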

How the results depend on the processing

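The calls of 559 genes higher in TG and 199 higher in T10-L1 DRG (73.7% higher in TG) became 1374 and 825 with DESeq2 (62.5%), 2283 and 2349 with DESeq2 without TG library 1 (49.3%), 965 and 497 with edgeR's likelihood-ratio test, 1153 and 1076 with the length offset fitted without TG library 1 (51.7%), 338 and 30 with the offset on all libraries (91.8%), 195 and 43 with all 16 libraries in 1 fit, 233 and 194 without the filter (54.6%) and 160 and 295 on library totals (35.2%). Both directions together were 758, and in the same order 2199, 4632, 1462, 2229, 368, 238, 427 and 455. Leaving out 1 library gave 0 to 1908 higher and 0 to 1675 lower, 0 to 3583 together, the highest without TG library 1 (53.3%). With DESeq2 size factors in edgeR, or without genes under 500 bp, the counts moved by less than 1.5 times. None of the 758 genes was called on the other side in these settings. The genes that also met the RPKM and fold criteria, 55 and 46, became 101 and 169 with DESeq2, 251 and 300 with DESeq2 without TG library 1, 84 and 129 with the likelihood-ratio test, 119 and 173 with the offset without TG library 1, 60 and 19 with the offset, 24 and 16 with all 16 libraries, 27 and 75 without the filter, 15 and 89 on totals, and 0 to 224 and 0 to 248 when 1 library was left out. The median log2 fold change of all genes, -0.03, shifted to -0.23 without the filter.

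No label pairs the replicate numbers. Deviations of log2 CPM from the mean of the own group correlated at 0.022 to 0.101 between same-numbered libraries of the 2 ganglia. Between differently numbered libraries they correlated at -0.084 to 0.087. A fit with the replicate number as a block called 0 genes with edgeR (2478 at an unadjusted p under 0.05; median of all genes -0.21), and the block with the length offset called 0 higher and 1 lower.

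The short-gene difference of 5.13 points was 0.192 points under 500 bp and 14.5 points under 2000 bp (exact permutation p = 0.0571 for both), and 4.58 to 6.57 points when 1 library was left out, where p = 0.0571 is the smallest possible. The log2 fold change of *Hoxd1* turned to -0.081 with DESeq2 without TG library 1, -0.83 with the offset without it and -0.020 on totals, and ran from -0.088 (without T10-L1 DRG library 4) to 0.86 when 1 library was left out, with -0.059 without TG library 1. *Rpl8* (-0.029) turned with the offset without TG library 1. *Pirt* turned to 0.34 with that offset and 0.064 with the offset on all libraries, and ran from -0.96 to 0.27 (without T10-L1 DRG library 4). The causes were not tested. A floor of 3 counts limits what can be said of genes at 0.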

Other observations

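*2610034M16Rik* and *Nudt12* are neighbours on chromosome 17 of mm9 and were among the 12 genes with the largest changes in opposite directions. *2610034M16Rik* spans 59018231 to 59130798 and had 45.6, 86.6, 45.9 and 93.6 CPM in TG libraries 1 to 4 against 0.764, 0, 4.93 and 6.75 CPM in T10-L1 DRG (log2 fold change 4.75, standard error 1.14, edgeR adjusted p = 0.0409). *Nudt12*, which encodes a hydrolase of nicotinamide nucleotides, spans 59139041 to 59152795 and had 0, 0.984, 1.37 and 1.58 CPM in TG against 58.4, 37, 23.8 and 8.85 CPM in T10-L1 DRG (log2 fold change -4.59, standard error 1.14, edgeR adjusted p = 0.0446). The pair was singled out after the values were seen.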
